A study of Sus scrofa with 20 samples.

Results

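Genes of the proteins that coat lipid droplets, or that the endoplasmic reticulum needs to make them, were compared between backfat and liver of the Nanchukmacdon pig. The list held 10 genes: the perilipins PLIN1, PLIN2, PLIN3, PLIN4 and PLIN5, the CIDE genes CIDEA, CIDEB and CIDEC, BSCL2 and FITM2. Members were taken by symbol, with no threshold on a measured value. Symbols were matched to pig Ensembl identifiers, and 9 of the 10 genes were found among the 31907 genes of the count table. CIDEA had no identifier there and was not analysed here. Total RNA was sequenced from frozen bulk tissue of 5 boars, with 5 libraries of backfat and 5 of liver, and the other 10 of the 20 samples were bisulfite libraries, whose files carry no position in the genome. Both groups consisted of untreated animals, given by the labels as WT, in normal state and 22 months of age (the study's text gives a higher average age), so that tissue was the only factor. Libraries are named here by tissue and by the boar number of their column (65, 67, 69, 71 or 72). The boar numbers could not be tied to the replicate numbers of the labels.

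A lipid droplet stores triglyceride and sterol ester in a core that is wrapped by a single layer of phospholipid. Perilipins bind to this surface and control the access of lipases to the core. CIDE proteins gather where droplets touch and let neutral lipid pass from a smaller to a larger droplet, and in liver CIDEB also acts in the loading of lipid onto very low density lipoprotein. Seipin, the product of BSCL2, and FIT2, the product of FITM2, are not coat proteins but reside in the membrane of the endoplasmic reticulum, where droplets are born. White fat cells hold 1 very large droplet, whereas hepatocytes hold many small ones and turn their lipid over into lipoproteins and fatty acid oxidation.

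Between 43820042 and 61772737 reads were assigned to genes per library. Levels are given as CPM (the counts of a gene in every 1e+06 counts of its library) after scaling by TMM in edgeR, with factors of 1.182 to 1.436 for the backfat libraries and 0.6485 to 0.9156 for those of liver. Differences are given as the log2 fold change of backfat over liver from edgeR's quasi-likelihood test over 16275 genes, with its standard error (SE) and the p-value adjusted by Benjamini-Hochberg. Genes were called where the adjusted p did not exceed 0.05 and the log2 fold change was 2 or more, up or down. The p-values measure the spread between these 5 boars per tissue. In bulk tissue, fewer cells of a type and less RNA per cell cannot be told apart.

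The tissues matched their labels by marker genes, and some libraries stood apart. The summed level of 6 adipocyte markers was 8297 to 10954 CPM in backfat and 2.79 to 9.21 CPM in liver, where ADIPOQ was at 0 in 2 libraries and LEP in 4. The sum of 8 hepatocyte markers was 170 to 603 CPM in backfat, highest in backfat 69, and 105255 to 123690 CPM in 4 liver libraries, but 32798 CPM in liver 67. Most of the backfat sum was APOA1 alone, at 195, 213, 482, 173 and 167 CPM in backfat of boars 65, 67, 69, 71 and 72. Liver 67 also had 44.48% of its counts on mitochondrial genes, against 6.384% to 20.25% in the other liver libraries. Its 5 matched skeletal muscle markers summed to 192 CPM, against 1.04 to 2.09 CPM in the others, while in backfat this sum ranged from 12.7 CPM in backfat 72 to 418 CPM in backfat 65.

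Each of the 9 genes had enough counts to be tested. PLIN1, PLIN4, CIDEC and FITM2 were called higher in backfat (4 of 9 genes, where 11.1% of all genes tested were called in this direction). PLIN5 and CIDEB were called higher in liver (2 of 9, against 11.2% of all genes). PLIN2, PLIN3 and BSCL2 were not called. Past the adjusted p alone stood the same 6 genes (55.0% of all genes tested, 28.0% higher in backfat and 27.0% higher in liver). For these 6 genes, the libraries of one tissue did not overlap with those of the other, which held for 42.6% of all genes tested, 22.9% with backfat above liver and 19.7% with liver above backfat. The median of the absolute log2 fold change was 4.753 over the 9 genes and 0.808 over all genes tested.

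**Figure D1:**
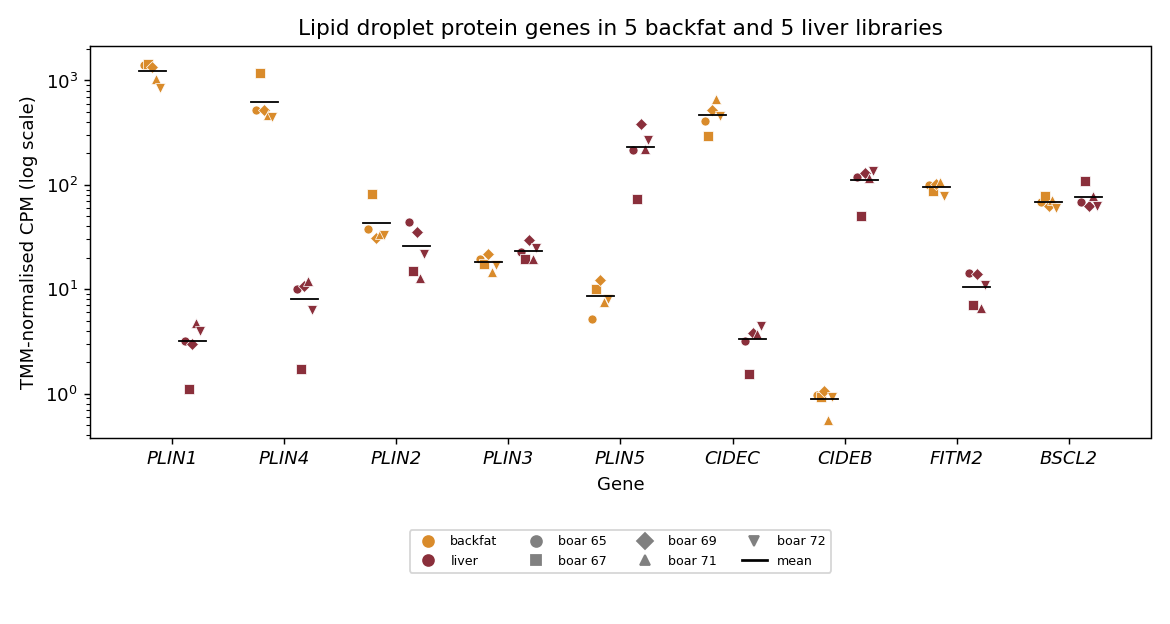
TMM-normalised CPM (log axis) of the 9 genes in each library, with backfat in orange, liver in dark red, 1 symbol shape per boar and a black line at the mean of 5 libraries. PLIN1, PLIN4, CIDEC and FITM2 lie higher in every backfat library, PLIN5 and CIDEB in every liver library, and PLIN2, PLIN3 and BSCL2 overlap.

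PLIN1, the perilipin of fat cells that holds the lipase cofactor ABHD5 at the droplet surface, had the largest log2 fold change of the 9 genes. It lies on chromosome 7 (7:55237517-55250797, minus strand, Sscrofa11.1). Its level was 1416, 1447, 1349, 1045 and 853.3 CPM in backfat of boars 65, 67, 69, 71 and 72, and 3.217, 1.107, 2.973, 4.739 and 3.96 CPM in their livers. The lowest backfat library was thus 180 times the highest liver library. The log2 fold change was 8.58 (SE 0.47, 95% interval 7.55 to 9.61, adjusted p = 2.946e-08), and 73 of the genes tested had a larger one. The mean level in liver was 0.2618% of that in backfat. For comparison, the mean of ADIPOQ in liver was 0.000953% of its backfat level, that of LEP 0.00618%, that of TRARG1 0.0365% and that of FABP4 0.0683%. The other matched adipocyte markers were above PLIN1 in this measure, ACVR1C at 6.43% and ADRB3 at 160%. ADRB3 was at most 0.624 CPM in any library. Liver 67 had the lowest PLIN1 and the highest adipocyte marker sum of the livers (9.21 CPM), of which FABP4 gave 7.8 CPM. ACVR1C was at 0.162 CPM there, against 1.77 CPM in liver 65. The part of fat cells in the PLIN1 level of liver was not tested.

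PLIN4, a long perilipin with many repeats that coats small nascent droplets of fat cells, was the next perilipin of backfat per exon length. Its level was 518.7, 1182, 524.5, 469.5 and 444.7 CPM in backfat of boars 65, 67, 69, 71 and 72, and 9.975, 1.728, 10.74, 11.91 and 6.374 CPM in their livers. Boar 67 thus had the highest backfat level and the lowest liver level. With a fitted log2 fold change of 6.27 (SE 0.56, adjusted p = 1.307e-06), PLIN4 was 77.04-fold higher in backfat.

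PLIN5, the perilipin of tissues that oxidise fat, which ties droplets to mitochondria, went the other way. It was measured at 5.143, 10.08, 12.2, 7.497 and 8.114 CPM in backfat of boars 65, 67, 69, 71 and 72, and at 216.7, 72.66, 379.5, 219.4 and 271.6 CPM in their livers. Each liver was above each backfat, and liver 67 was far below the other livers. The log2 fold change was -4.75 (SE 0.42, adjusted p = 1.231e-06), so that PLIN5 was 26.96-fold higher in liver. PLIN5 is also a gene of muscle. Its lowest backfat level was found in backfat 65, the library with the highest sum of muscle markers (418 CPM). Its highest backfat level was found in backfat 69, with the next-highest sum (162 CPM). The part of muscle in the PLIN5 level of backfat was not tested.

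PLIN4 and PLIN5 are neighbours in the genome. PLIN5 spans 2:74304613-74314314 and PLIN4 spans 2:74318624-74331920, both on the plus strand, with 4309 bases between the end of PLIN5 and the start of PLIN4. Per exon length, PLIN4 was between 26.9 and 73.3 times PLIN5 in the backfat libraries and between 0.0147 and 0.034 times PLIN5 in the liver libraries. The order of these neighbours was thus opposite in the tissues in each of the 5 boars. The 300 bases around their RefSeq starts (250 before and 50 from the start on, 5′ to 3′, Sscrofa11.1) are shown because these adjacent perilipin genes were called in opposite directions, with each CpG in capitals. The window of PLIN5 is 2:74304363-74304662 and that of PLIN4 is 2:74318374-74318673, both on the plus strand.
PLIN5: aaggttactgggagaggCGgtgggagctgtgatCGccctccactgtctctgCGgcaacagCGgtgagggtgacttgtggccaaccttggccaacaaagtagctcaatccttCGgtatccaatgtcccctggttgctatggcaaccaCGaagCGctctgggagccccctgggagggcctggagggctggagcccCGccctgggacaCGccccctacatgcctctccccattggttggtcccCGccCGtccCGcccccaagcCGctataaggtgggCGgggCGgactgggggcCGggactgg
PLIN4: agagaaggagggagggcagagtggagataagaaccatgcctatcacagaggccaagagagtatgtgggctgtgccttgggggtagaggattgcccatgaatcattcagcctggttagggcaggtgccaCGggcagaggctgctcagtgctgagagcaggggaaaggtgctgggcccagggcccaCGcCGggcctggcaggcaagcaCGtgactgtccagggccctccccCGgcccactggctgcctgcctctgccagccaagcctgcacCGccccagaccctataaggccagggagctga
The window of PLIN5 held 16 CpG, the median of 19556 pig promoters cut in the same way, and that of PLIN4 held 6. Both had the letters TATAAG on the plus strand after the annotated start, with the first base at position 14 in PLIN5 and at position 32 in PLIN4, counted from 1 at the first transcribed base. TATAAG was looked for after the windows had been seen, and 5.42% of all promoters hold it on either strand. It was also found, on the strand of the gene, before the starts of PLIN1 (-158) and PLIN2 (-150). CCAAT, present in 35.4% of promoters, was found at -133 and on the other strand at -23 in PLIN5 and was not found in the window of PLIN4. Neither window held AGGTCA, the nuclear receptor half-site (14.1% of promoters).

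**Figure D2:**
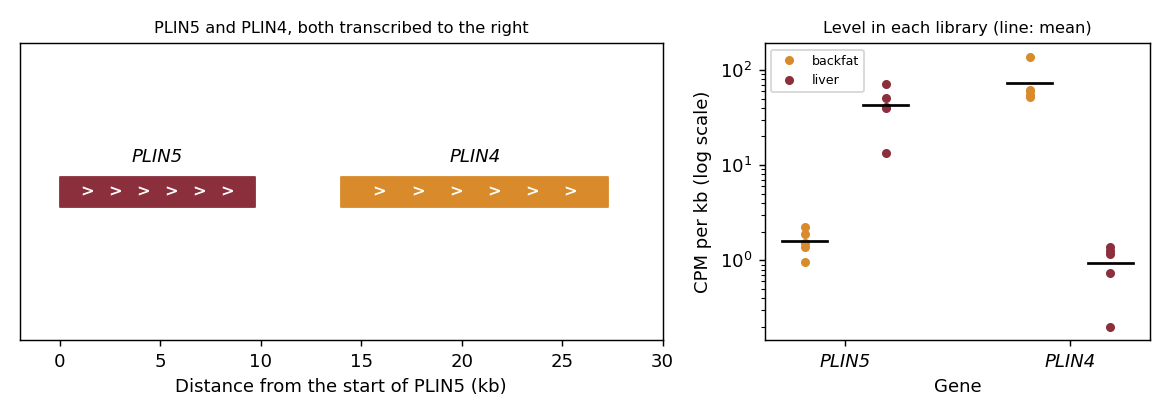
Left, the spans of PLIN5 and PLIN4 drawn to scale by distance from the start of PLIN5 in kb, with arrowheads in the direction of transcription. Right, CPM per kb of exon (log axis) in each of the 5 backfat (orange) and 5 liver (dark red) libraries, with a line at the mean, where PLIN5 is higher in liver and PLIN4 higher in backfat.

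PLIN2 and PLIN3, the perilipins that most cells make, lay next to each other in the order per exon length in both tissues and were not called. PLIN2, which coats droplets of cells other than mature fat cells and is degraded when not bound to lipid, lies at 1:203683867-203709277 on the plus strand. It was at 38.13, 82.03, 30.77, 33.72 and 33.31 CPM in backfat of boars 65, 67, 69, 71 and 72, and at 44.21, 15.07, 35.1, 12.95 and 21.75 CPM in their livers. Backfat was higher in 3 of the 5 boars and the ranges overlapped. Its log2 fold change of 0.76 (SE 0.37, 95% interval -0.06 to 1.57, adjusted p = 0.1056) did not pass the test, but it did without liver 65 (1.05, adjusted p = 0.03175) and with library size alone as scaling (1.42, adjusted p = 0.01289).

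PLIN3, which moves between the cytosol and nascent droplets, lies at 2:73970149-73995314 on the plus strand. It was at 19.65, 17.44, 21.58, 14.72 and 17.05 CPM in backfat and at 22.79, 19.6, 29.77, 19.4 and 24.87 CPM in liver of the same boars. Liver was higher in 5 of 5 boars, although the ranges of the tissues overlapped. The log2 fold change was -0.37 (SE 0.17, 95% interval -0.73 to 0.00, adjusted p = 0.08565), and with library size alone as scaling, which moves the median of all genes by 0.71, its sign turned, at 0.34 (adjusted p = 0.2089). Without liver 67 it was -0.46 (adjusted p = 0.02898) and without liver 71 -0.45 (adjusted p = 0.04265), so that either library set the side of the threshold on which PLIN3 stood.

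CIDEC and CIDEB exchanged places between the tissues. CIDEC, which drives the growth of the large droplet of fat cells, lies at 13:66141836-66149801 on the minus strand. Its level was 406.6, 295.6, 518.3, 659.7 and 457.2 CPM in backfat of boars 65, 67, 69, 71 and 72, and 3.192, 1.539, 3.801, 3.728 and 4.448 CPM in their livers. The lowest backfat library was 66.5 times the highest liver library. Its log2 fold change was 7.13 (SE 0.38, adjusted p = 2.13e-08).

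CIDEB, the CIDE gene of hepatocytes, lies at 7:74982941-74985776 on the plus strand. Its level was 0.97, 0.9306, 1.06, 0.5587 and 0.9264 CPM in backfat and 118.2, 50.63, 130, 115.6 and 137.1 CPM in liver of the same boars. Every liver was at least 47.8 times the highest backfat, with liver 67 far below the other livers. The log2 fold change was -6.95 (SE 0.33, adjusted p = 1.066e-08), a fitted difference of 123.4-fold. The mean in backfat was 0.806% of that in liver, while that of ALB was 0.0229% and that of APOA1 1.69%. APOA1 was the only matched hepatocyte marker above CIDEB in this measure. The others were CPS1 (0.0177%), APOB (0.0206%), TTR (0.022%), AHSG (0.0328%), FGB (0.0421%) and TF (0.05%). In backfat 69, where ALB was at 36.4 CPM against at most 0.351 CPM in the other backfat libraries, CIDEB was at 1.06 CPM. In 3 of the others CIDEB was between 0.9264 and 0.97 CPM, and in backfat 71 it was at 0.5587 CPM. The part of hepatocyte RNA in the CIDEB level of backfat was not tested.

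Per exon length, CIDEC made up 99.8% (SD 0.0626) of the sum of CIDEC and CIDEB in backfat and CIDEB 96.2% (SD 0.276) of it in liver, with n = 5 in each. The promoter windows of both genes are shown because these genes of 1 family were called in opposite directions, again with CpG in capitals. They are 13:66149752-66150051 on the minus strand for CIDEC and 7:74982691-74982990 on the plus strand for CIDEB.
CIDEC: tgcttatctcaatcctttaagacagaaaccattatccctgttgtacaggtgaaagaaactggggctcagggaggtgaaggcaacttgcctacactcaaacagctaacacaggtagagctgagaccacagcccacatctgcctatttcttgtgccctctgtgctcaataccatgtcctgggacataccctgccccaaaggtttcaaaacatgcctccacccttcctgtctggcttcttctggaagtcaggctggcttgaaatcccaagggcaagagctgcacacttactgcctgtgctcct
CIDEB: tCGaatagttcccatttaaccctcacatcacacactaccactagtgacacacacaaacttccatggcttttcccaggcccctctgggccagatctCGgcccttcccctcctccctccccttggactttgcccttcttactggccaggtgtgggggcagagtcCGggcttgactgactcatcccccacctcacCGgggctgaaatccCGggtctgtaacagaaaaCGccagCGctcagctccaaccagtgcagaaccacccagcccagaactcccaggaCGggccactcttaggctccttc
No CpG was found in the window of CIDEC, as in 2.84% of all promoters, and 8 were found in that of CIDEB. None of the motifs searched on both strands was found in either window. These were AGGTCA, its direct repeat with 1 base between (DR1, exactly in 0.0307% and with up to 2 letters different in 3.32% of promoters), TATAAA (10.9%), CCAAT and TATAAG. In the count table CIDEC and CIDEB are read without strand, and RefSeq places genes of the opposite strand over 10.495% of the exon bases of CIDEC (a long non-coding RNA) and over 8.918% of those of CIDEB (LTB4R2). A further 1.784% of the CIDEB exons lies under NOP9. Reads there cannot be assigned to a strand. They are left out of the counts where the Ensembl annotation used for counting also holds both genes, which was not checked.

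FITM2, which binds triglyceride in the endoplasmic reticulum and is needed for normal droplet budding, lies at 17:46742662-46745898 on the minus strand. It was at 98.93, 88.07, 102.9, 107.1 and 77.9 CPM in backfat of boars 65, 67, 69, 71 and 72, and at 14.19, 7.128, 13.89, 6.572 and 11.07 CPM in their livers. The ranges were far apart, and the difference was the least of the 6 that were called. Its log2 fold change was 3.17 (SE 0.25, 95% interval 2.63 to 3.70, adjusted p = 3.849e-07), or 8.976-fold.

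BSCL2, whose product seipin sits at the neck between the endoplasmic reticulum and a growing droplet, lies at 2:9052676-9064890 on the plus strand. It was at 69.23, 77.68, 62.49, 71.1 and 60.16 CPM in backfat and at 68.93, 109.4, 63.24, 77.72 and 62.39 CPM in liver of the same boars. The tissues overlapped, and liver 67, lowest for 5 of the other genes, was the highest library of all for BSCL2. The log2 fold change was -0.16 (SE 0.18, 95% interval -0.55 to 0.23, adjusted p = 0.4592), and with library size alone as scaling it was 0.58 (adjusted p = 0.01876). Opposite-strand genes cover 17.483% (a long non-coding RNA) and 11.033% (GNG3) of its RefSeq exon bases, so that its counts are uncertain.

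**Figure D3:**
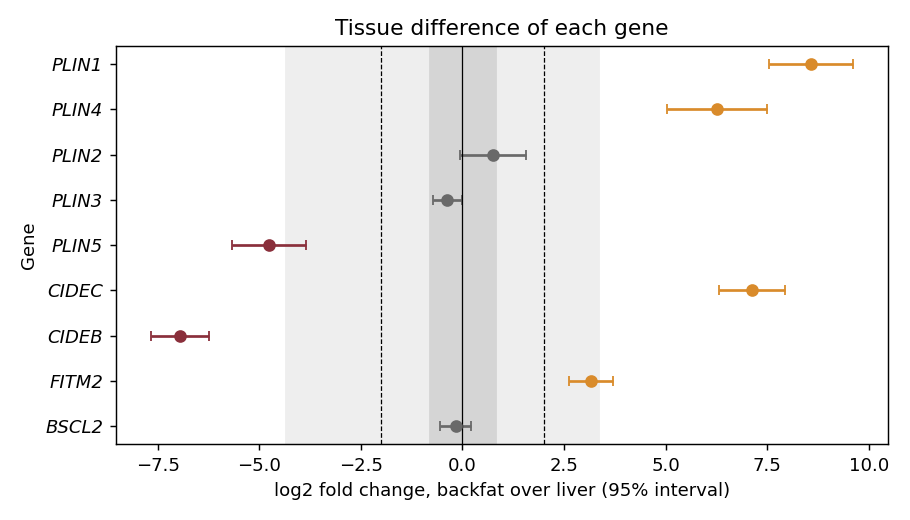
Log2 fold change of backfat over liver of each gene with its 95% interval, in orange where called higher in backfat, dark red where called higher in liver and grey where not called. The dashed lines mark 2 and -2, and the shaded bands hold the middle 50% and the middle 90% of all genes tested. PLIN1, CIDEC and PLIN4 lie beyond the wider band on the side of backfat, CIDEB and PLIN5 on that of liver.

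To compare the genes with each other, CPM was divided by the exon length of the count table in kb. In backfat the order of the means was CIDEC (356.3 ± 102.9 CPM per kb, SD, n = 5), PLIN1 (294.4 ± 62.78), PLIN4 (72.83 ± 36.14), BSCL2 (25.59 ± 2.633), FITM2 (21.7 ± 2.713), PLIN2 (9.073 ± 4.506), PLIN3 (7.17 ± 1.038), PLIN5 (1.596 ± 0.4951) and CIDEB (0.5124 ± 0.1108). The ranges of CIDEC and PLIN1, of BSCL2 and FITM2 and of PLIN2 and PLIN3 overlapped, and the other neighbours in this order were apart. In liver the order was CIDEB (63.58 ± 19.88 CPM per kb), PLIN5 (43.01 ± 20.54), BSCL2 (28.66 ± 7.304), PLIN3 (9.23 ± 1.699), PLIN2 (5.373 ± 2.796), CIDEC (2.547 ± 0.8399), FITM2 (2.415 ± 0.8254), PLIN4 (0.945 ± 0.4804) and PLIN1 (0.7705 ± 0.3271). Among these neighbours, BSCL2 was apart from PLIN3 and FITM2 from PLIN4, and all others overlapped. The exon length of the count table exceeds that of the longest RefSeq transcript for 8 of the 9 genes, as for FITM2 (4376 against 814 bases) and PLIN1 (4152 against 1575), and is shorter for CIDEC (1312 against 1417). With the RefSeq length, PLIN1 (776 CPM per kb) stood above CIDEC (329.9) in backfat, and FITM2 (116.7) above PLIN4 (91.26) and BSCL2 (31.14). In liver PLIN5 (111 CPM per kb) then stood above CIDEB (79.82), PLIN2 (13.67) and FITM2 (12.98) above PLIN3 (10.92), FITM2 also above CIDEC (2.358), and PLIN1 (2.031) above PLIN4 (1.184).

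The sum over the 9 genes was 789.2 ± 82.03 CPM per kb in backfat and 156.5 ± 36.63 in liver (SD, n = 5). In raw counts, the genes took 0.231% to 0.437% of the backfat libraries and 0.0201% to 0.0586% of the liver libraries. Among the perilipins, PLIN1 made up 76.9% (SD 5.43) and PLIN4 18.4% (SD 5.00) of the level per length in backfat. In liver, PLIN5 made up 69.9% (SD 9.72), PLIN3 17.7% (SD 7.65, range 12.9% to 31.3%) and PLIN2 9.54% (SD 4.25). These shares rest on the exon length of the count table and change with the RefSeq length. With that length, PLIN2 (13.67 CPM per kb) stood above PLIN3 (10.92) in liver, beside PLIN5 at 111. Per length, PLIN5 was at least 4.3 times PLIN2 in each liver library, and PLIN1 at least 20.4 times PLIN2 in each backfat library.

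**Figure D4:**
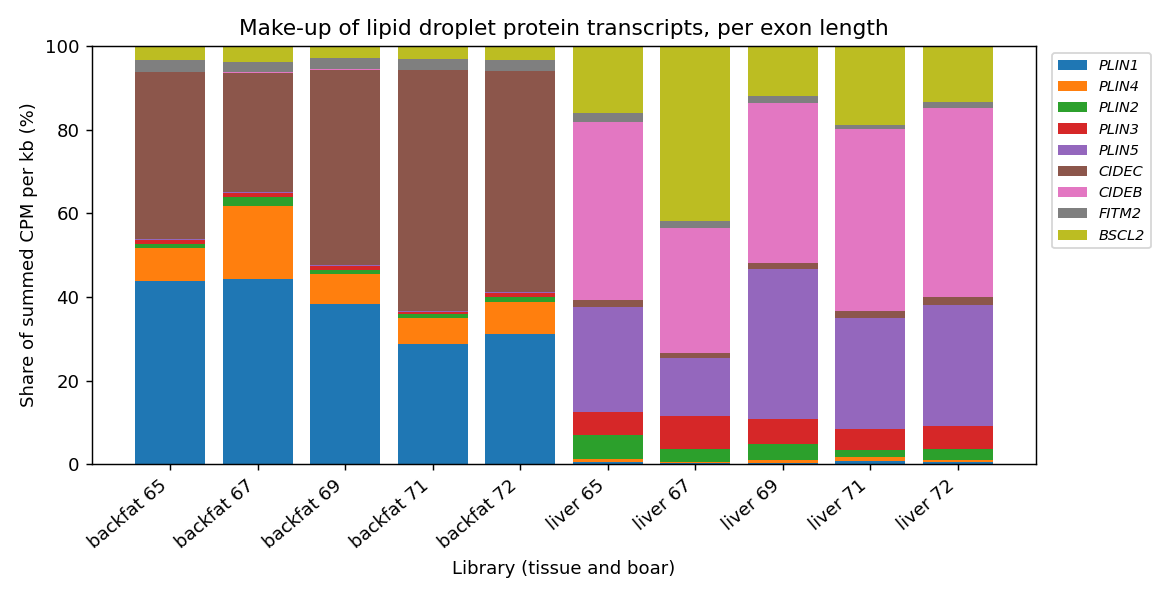
Share of each gene in the summed CPM per kb of the 9 genes (percent), in 1 bar per library. CIDEC, PLIN1 and PLIN4 fill most of each backfat bar, and CIDEB, PLIN5 and BSCL2 most of each liver bar, with BSCL2 largest in liver 67.

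Within a tissue, the genes did not vary alike between boars. In backfat the coefficient of variation was between 10.29% (BSCL2) and 49.67% (PLIN2), with 12.5% for FITM2 and 49.62% for PLIN4. PLIN2 and PLIN4 shared their highest backfat library, backfat 67, in which CIDEC was lowest. In liver the coefficient of variation was between 18.41% (PLIN3) and 52.04% (PLIN2). Liver 67 was below the mean of its tissue for 8 of the 9 genes and the lowest liver library for PLIN1, PLIN4, PLIN5, CIDEC and CIDEB. The part of its low hepatocyte marker sum, its muscle markers and its mitochondrial reads in these values was not tested. Without liver 67 and backfat 69, the same numbers of genes were called, 4 higher in backfat and 2 higher in liver.

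**Figure D5:**
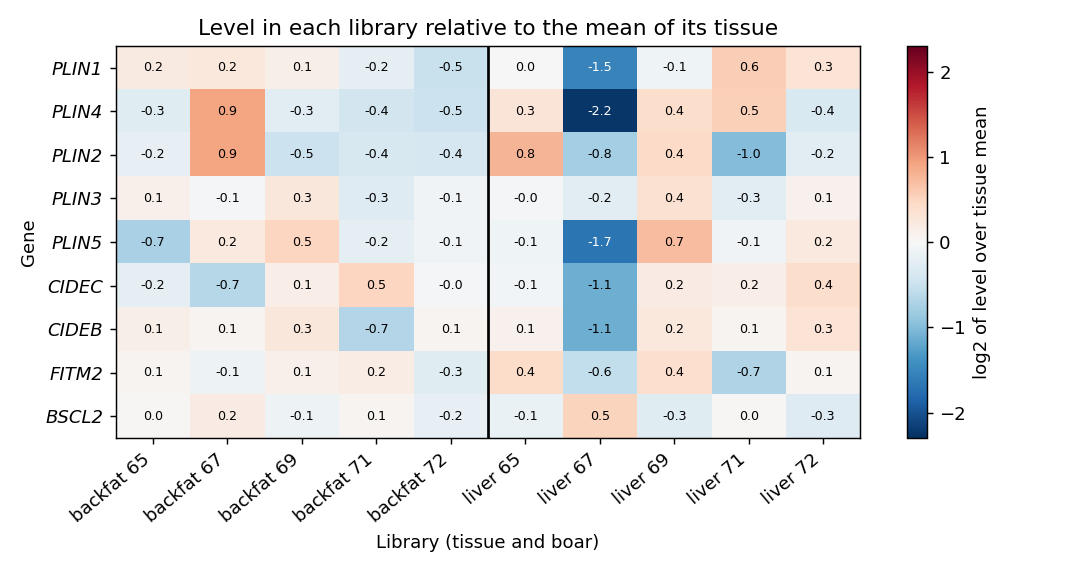
Log2 of each gene's level over the mean of its tissue, in each library (columns) and gene (rows), with values above the mean in red and below it in blue. Liver 67 is blue in 8 of the 9 rows, and PLIN2 and PLIN4 share their highest value among the backfat libraries in backfat 67.

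Other genes of droplet biology were counted in lists written by function. Of 8 genes of droplet lipases and their cofactors, 4 were called higher in backfat and none in liver (11.1% and 11.2% of all genes tested), with a median log2 fold change of 1.91 (0.00 over all genes). LIPE, the hormone-sensitive lipase, was at 566.4 ± 291.8 CPM in backfat and 3.663 ± 1.005 CPM in liver (log2 fold change 7.27, SE 0.45, adjusted p = 6.709e-08). MGLL, the monoglyceride lipase, had a log2 fold change of 4.99 (SE 0.50, adjusted p = 3.277e-06) and PNPLA2, the first lipase of triglyceride breakdown, one of 3.66 (SE 0.25, adjusted p = 1.457e-07). HILPDA, an inhibitor of PNPLA2, was the other one called (2.31, SE 0.30, adjusted p = 3.546e-05). ABHD5, the cofactor of PNPLA2 that perilipins bind, had a log2 fold change of 0.68 (SE 0.28, adjusted p = 0.05897), and G0S2, another inhibitor of PNPLA2, one of 0.17 (SE 0.80, adjusted p = 0.8717). Both missed the threshold.

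Of 10 tested genes of droplet formation, 3 were called higher in backfat and none higher in liver (11.1% and 11.2% of all genes). Past the adjusted p alone were 5 and 3 in these directions (28.0% and 27.0% of all genes), and the median log2 fold change was 0.38. The called genes were LPIN1, a phosphatidate phosphatase (4.23, SE 0.29, adjusted p = 1.265e-07), LDAF1, the partner of seipin (3.40, SE 0.41, adjusted p = 1.608e-05), and DGAT2, which makes triglyceride (3.11, SE 0.40, adjusted p = 2.861e-05). ACSL3 and AGPAT2, which activate and attach fatty acids, were past the adjusted p in the direction of liver, at -1.82 (SE 0.23, adjusted p = 3.006e-05) and -1.73 (SE 0.19, adjusted p = 7.131e-06), and were named after their values were seen.

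Of 10 tested genes of other droplet surface proteins, 1 was called higher in backfat and 3 higher in liver, where 11.1% and 11.2% of all genes were, with a median log2 fold change of -1.04. METTL7B, a methyltransferase-like protein, was at 0.7635 ± 0.397 CPM in backfat and 697.6 ± 343.7 CPM in liver (log2 fold change -9.83, SE 0.75, adjusted p = 3.244e-07). HSD17B11, a hydroxysteroid dehydrogenase, had a log2 fold change of -5.67 (SE 0.37, adjusted p = 9.083e-08), and NSDHL, an enzyme of cholesterol synthesis, one of -2.99 (SE 0.25, adjusted p = 7.703e-07). AIFM2, a suppressor of ferroptosis, was the gene called in backfat (2.32, SE 0.22, adjusted p = 2.396e-06).

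Among 10 transcription factors, PPARG, the master factor of fat cells and a known regulator of PLIN1 and CIDEC, was at 161.4 ± 34.44 CPM in backfat and 0.7424 ± 0.5764 CPM in liver (log2 fold change 7.78, SE 0.52, adjusted p = 1.112e-07). It was the one factor called higher in backfat. HNF4A, a factor of hepatocytes (-9.52, SE 0.57, adjusted p = 4.708e-08), PPARGC1A, a coactivator of oxidative genes (-5.47, SE 0.36, adjusted p = 1.025e-07), and PPARA, a factor of fatty acid oxidation (-2.08, SE 0.46, adjusted p = 0.001975), were the 3 called higher in liver. Over all genes, 11.1% were called in backfat and 11.2% in liver. The median over the 10 factors was -0.56.

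Of 6 tested genes known from thermogenic fat cells, 4 were called higher in liver (11.2% of all genes) and 1 in backfat (11.1% of all genes), with a median log2 fold change of -3.20. EBF2, an early factor of the fat lineage, was at 52.81 ± 2.44 CPM in backfat and at most 0.02123 CPM in any liver library (log2 fold change 12.77, SE 0.35, adjusted p = 3.531e-10, with a liver level that rests on very few reads). EVA1A (-4.27, SE 0.32, adjusted p = 2.798e-07), KCNK3 (-4.20, SE 0.60, adjusted p = 7.643e-05) and DIO2 (-3.56, SE 0.58, adjusted p = 0.0002185) led those higher in liver, of which KCNK3 was at most 0.8479 CPM in any library. EVA1A is known from autophagy, KCNK3 is a potassium channel, and DIO2 makes active thyroid hormone. CKMT2, a mitochondrial creatine kinase, was the other one (-2.85, SE 0.32, adjusted p = 8.763e-06). ELOVL3 had too few counts to be tested.

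The genes nearest in pattern were found by the root mean square difference of centred log2(CPM + 1) values over the 10 libraries, which fall into 2 clusters by tissue, so that the tissue difference sets most of this measure. For PLIN1 they were THBS4 (0.499), APOD (0.616) and COL15A1 (0.703). For CIDEC they were LOXL2 (0.412), PENK (0.420) and COL15A1 (0.447), and for PLIN4 F2RL2 (0.676), LGALS12 (0.688), which encodes a galectin of fat droplets, and SLC1A3 (0.714). TMEM43 (0.203), ALDH1L2 (0.211) and MRAS (0.229) were the nearest to FITM2. On the side of liver, CIDEB was nearest to TARS3 (0.140), CARNS1 (0.194) and HAAO (0.200), and PLIN5 to CLDN3 (0.253), IL22RA1 (0.329) and LEAP2 (0.337). CIDEB thus had closer neighbours than PLIN5, by this measure. Genes near in this measure need not be alike in log2 fold change, since 1 CPM is added before the log. PENK was at 14.95 (CIDEC 7.13), LGALS12 at 14.77 (PLIN4 6.27) and IL22RA1 at -11.015 (PLIN5 -4.75). In contrast, TMEM43 was at 3.07 (FITM2 3.17) and CARNS1 at -6.90 (CIDEB -6.95).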

How the data were processed

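Raw counts per gene were used as deposited by the authors, who checked reads with FastQC, trimmed them with Trimmomatic, aligned them with HISAT2 and counted read pairs over exons with featureCounts 2.0.1 and the Ensembl release 99 annotation of Sscrofa11.1, with no strand setting in the file header. Overlapping and multi-mapped reads are left out by these settings. Bisulfite files hold calls by read position and were not used.

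Tissues were compared with edgeR 4.0.16 under R 4.3.3 (filterByExpr by tissue, TMM, glmQLFit and glmQLFTest, tissue as the only term, Benjamini-Hochberg over 16275 genes). Standard errors are the log2 fold change over the root of F. Alternatives were other scalings and filters, DESeq2 1.42.0, limma-voom 3.58.1, the boar as a block, no mitochondrial genes, and libraries left out. The fits were tested on simulated data. No 2 libraries of a tissue agreed within sampling noise. Columns were tied to tissues by name, and boars by the numbers in those names. The study took both tissues from the same boars, and deviations from the tissue means of same-boar libraries correlated at 0.049 to 0.238.

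Loci, exons and promoters are from RefSeq (Sscrofa11.1, Annotation Release 106), which held all 10 genes. The starts of PLIN1 and FITM2 may lie inside longer transcripts, since their RefSeq models are short. Members, lists and markers were chosen with earlier results of these data known. From each list, up to 3 called genes per direction with the largest change were named, with partners of the droplet proteins, and 3 nearest genes by pattern. HILPDA, CKMT2, ACSL3 and AGPAT2 were named outside this rule, after their values were seen. METTL7B is TMT1B in RefSeq. RAB18, HSD17B13, METTL7A, AQP7, FGA, MB, MYH1, MYH2, MYH7 and MYLPF were not matched. The sums of macrophage markers were 424 to 754 CPM in backfat and 1586 to 2237 CPM in liver, and those of stellate cell markers 265 to 353 CPM and 188 to 279 CPM. Of the stellate cell markers, PDGFRB (mean 255 CPM in backfat, 84.4 CPM in liver) and NGFR (42.3 and 38.5 CPM) were higher in backfat. LRAT (0.15 and 5.59 CPM), RELN (6.37 and 42.4 CPM) and COLEC11 (0.254 and 69.1 CPM) were higher in liver. Figures were made in Python with matplotlib.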

Additional observations from a re-analysis of the deposited data

Results flagged for a closer look

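Within each tissue, the highest or lowest of the 5 libraries was set against the others by its gap to the nearest library over the whole range, with Dixon's critical value of 0.71. Of 18 groups (9 genes in 2 tissues), 4 were above it, where chance flags about 1 group in 20. PLIN4 in backfat had a ratio of 0.892, with 1182 CPM in backfat 67 and 444.7 to 524.5 CPM in the other 4 libraries. PLIN2 in backfat had a ratio of 0.856, with 82.03 CPM in the same library and 30.77 to 38.13 CPM in the others. CIDEB in liver had a ratio of 0.751, with 50.63 CPM in liver 67 and 115.6 to 137.1 CPM in the others. CIDEB in backfat had a ratio of 0.734, with 0.5587 CPM in backfat 71 and 0.9264 to 1.06 CPM in the others.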

How the results depend on the processing

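Each gene was fitted again under 19 alternatives. In all of them 4 of the 9 genes were called for backfat and 2 for liver. PLIN1 (log2 fold change 8.32 to 9.32), PLIN4 (5.92 to 6.99), CIDEC (6.90 to 7.82), FITM2 (3.01 to 3.83), PLIN5 (-5.14 to -4.09) and CIDEB (-7.20 to -6.25) kept direction and call. With libraries left out in turn, the number of genes past the adjusted p alone was 6 to 7. With library size alone it was 8: the log2 fold change was 1.42 for PLIN2 (adjusted p = 0.01289), 0.34 for PLIN3 and 0.58 for BSCL2, of which the last 2 changed direction. Less the shift of 0.71 in the median of all genes, these were 0.71, -0.38 and -0.13. Without liver 67 and backfat 69, BSCL2 was at 0.03 and PLIN3 at -0.49 (adjusted p = 0.03114). With the boar as a replicate block no call changed among the 9 genes (PLIN1 8.66, PLIN3 -0.36 with adjusted p = 0.07286). Over the whole table, 1814 genes were called higher in backfat and 1819 higher in liver, against 2874 in backfat with library size alone, 2729 in liver with no filter, and 871 and 981 with at least 10 counts in every library. Fewer genes were tested under the last filter, and the cause was not tested for the others. TPM uses no TMM factor and is on another scale than CPM per kb, so that its values cannot be set against those levels. As TPM, the means were 22.22 in backfat and 14.35 in liver for PLIN3 and 80.01 and 40.95 for BSCL2, higher in backfat.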

Other observations

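The protein-coding genes on either side of the 9 genes were looked up after the data were seen. Of 16 such neighbours that are not themselves in the list, 11 were tested and 2 were called (22.3% of all genes were called), PEX11A and TICAM1. PEX11A, a gene of peroxisome division 5441 bases from PLIN1, was at 102 ± 21 CPM in backfat and 20.9 ± 7.07 CPM in liver (log2 fold change 2.29, SE 0.28, adjusted p = 2.18e-05), and it was the 1 of 7 tested neighbours of called genes that was called in the same direction. None of the 7 was called in the other direction. Over all genes tested, 11.1% were called higher in backfat and 11.2% higher in liver. Past the adjusted p alone, in the direction of their member, were also KIF7 (0.94, beside PLIN1), UBXN6 (0.81, PLIN4), RPUSD3 (1.32, CIDEC), GDAP1L1 (1.63, FITM2) and DHRS1 (-1.77, CIDEB). R3HDML, beside FITM2, was not (-0.43, adjusted p = 0.5213). Of all genes tested, 28.0% were past it higher in backfat and 27.0% higher in liver. TICAM1, an adaptor of innate immunity 9251 bases from PLIN3, was at 10.9 ± 3.02 CPM in backfat and 68.4 ± 21.1 CPM in liver (log2 fold change -2.65, SE 0.25, adjusted p = 2.379e-06).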
